A study of Sus scrofa with 8 samples.

Results

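Collagens are the triple-helical proteins of the extracellular matrix, and each molecule is wound from 3 chains, which come from the same gene or from different ones. The messenger RNA of 34 collagen chain genes was followed in the inner lining of the pig uterus, the endometrium, on day 14 after insemination. The chains were taken by name: their Entrez gene ID in the count tables belongs to a pig gene whose symbol reads COL, a number, A and a number. COL17A1, a transmembrane chain of the hemidesmosome, was left out. The 34 genes are among 21064 genes in the tables, and each gene is represented by its transcript of highest mean count. In the gene table used for names, 42 such symbols were listed. The other 8 (COL1A1, COL9A3, COL15A1, COL20A1, COL22A1, COL24A1, COL25A1 and COL27A1) had no matching gene ID and are not analysed here, and neither is COL6A1.

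Poly(A) RNA was sequenced from 4 pregnant gilts (young female pigs) and 4 cyclic control gilts, with 1 library per animal. All 8 animals were prepuberal German Landrace gilts given 750 IU of PMSG, a gonadotropin, and 500 IU of hCG 72 h later to time ovulation. Pregnant gilts were inseminated with Pietrain semen 24 h and 36 h after hCG, and controls received centrifuged semen's supernatant from that boar. The reddened zones where embryos attach were sampled in pregnant gilts and comparable places in controls, both without the muscle coat, so that pregnancy and the choice of zone cannot be told apart. RNA of 3 places along 1 horn was pooled per animal. Total counts ran from 28035007 to 41016150 per library. All 7 endometrium genes searched (ESR1, PGR, HOXA10, HOXA11, EMX2, WT1 and FOXA2) passed the filter on low counts, with summed levels of 140 to 155 CPM in controls and 120.1 to 132 CPM in pregnant animals (CPM, counts per 1000000 of TMM-scaled library size). These sums did not overlap. In the test used below 1 of the 7 was lower in pregnant animals and 0 were higher, against 10.1% and 11.2% of all transcripts.

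Fibrillar collagens, types I, II, III, V and XI, assemble into banded fibrils that carry the tensile strength of stroma. Type I and III chains form the bulk of a uterine fibril, and type V chains help to start it and limit its width. Type IV chains form the sheet-like network of the basement membrane under epithelia and around vessels, where the type XVIII chain also lies. The others include microfibrils of type VI, anchoring fibrils of type VII, chains that decorate fibrils (types IX, XII, XIV, XVI, XIX and XXI), short chains (VIII and X) and transmembrane chains (XIII and XXIII). In the pig the conceptus attaches to the surface epithelium without invading the stroma, and the stroma below is rebuilt during early pregnancy.

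Messages of some collagen chains were among the most abundant of the tissue. Of the 26 chains tested below, 5 were lower in pregnant endometrium, 1 was higher and 20 did not pass. The share called in either direction was 23.1%, against 21.3% of all transcripts. The 34 genes held 3.03% to 3.96% of all counts in controls and 1.81% to 2.89% in pregnant animals, with no overlap between the groups. These shares are of total counts without TMM scaling. On scaling to total counts the median log2 change (pregnant over control) of all transcripts was −0.15, against −0.02 with TMM. COL3A1, the single chain of type III collagen, had the highest count of any gene in all 4 control libraries, and ranked 1, 2, 3 and 1 in pregnant replicates 1 to 4. It took 1.56% ± 0.198 of the counts in controls and 0.897% ± 0.200 in pregnant animals (SD, n = 4 per group). COL1A2, the second chain of type I collagen, ranked between 3 and 4 in controls and between 2 and 7 in pregnant animals. It took 0.913% ± 0.0960 of the counts in controls and 0.715% ± 0.119 in pregnant animals. COL3A1 and COL1A2 thus held most of the collagen counts in both groups.

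To compare genes, CPM were divided by transcript length in kilobases (CPM per kb). COL3A1 stood at 3125 ± 278 CPM per kb in controls and 1959 ± 384 in pregnant animals, and COL1A2 at 1714 ± 130 and 1464 ± 208. Next came COL4A1 (414 ± 78.7 and 489 ± 81.1 CPM per kb), then COL4A2 and COL6A2, whose order was 5 and 4 in controls and 4 and 5 in pregnant animals, with means of 299 and 307 CPM per kb in controls and 306 and 253 CPM per kb in pregnant animals. COL18A1 was sixth in both groups, at 208 ± 38.8 and 235 ± 62.7 CPM per kb. COL5A1, COL6A3 and COL5A2 lay between 65.8 and 129 CPM per kb, and COL14A1, COL16A1, COL13A1 and COL5A3 between 25.4 and 41.8 CPM per kb. COL1A2 and COL4A1 each stood above the next chain by more than the summed SDs of the pair in both groups. COL3A1 did so in controls. In pregnant animals its gap to COL1A2 exceeded each SD but not their sum. COL4A2 and COL6A2 did not differ beyond their SDs in either group, and neither did COL5A1 and COL6A3. COL7A1, COL23A1, COL4A6, COL12A1 and COL4A5 followed at 6.97 to 19.7 CPM per kb, and every further chain had a group mean of at most 2.16 CPM per kb. Several models cover only part of a gene (COL18A1 has 21 exons and COL16A1 18 in the deposited annotation), so the order between genes depends on the models.

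**Figure D1:**
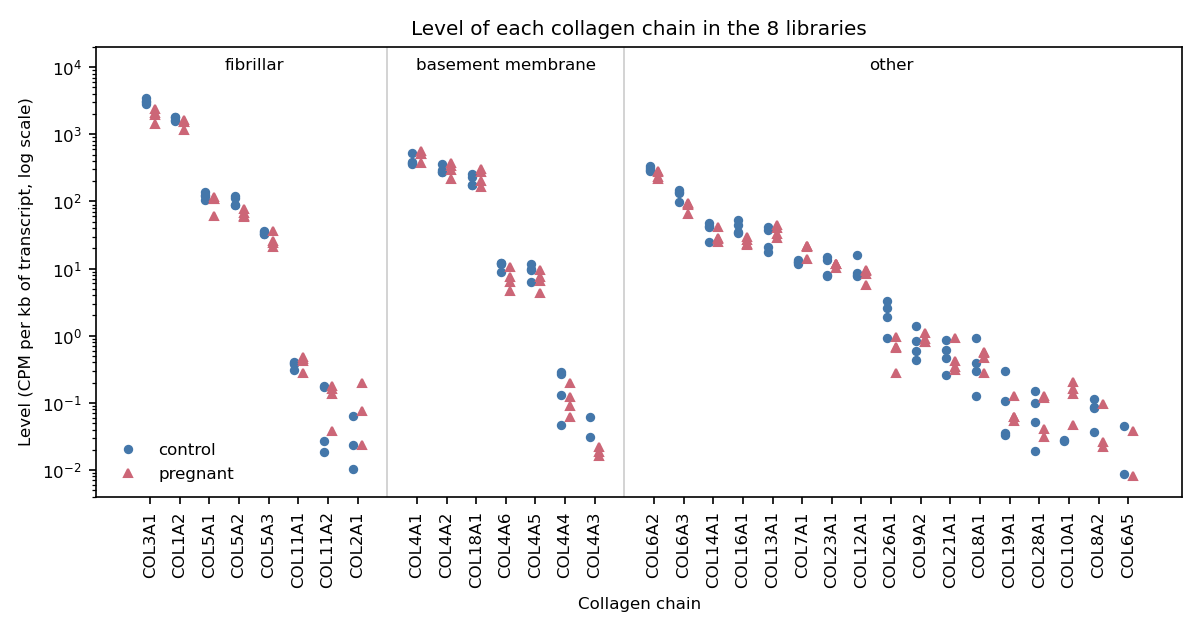
Level of each collagen chain as CPM per kb of transcript (vertical log axis), by class, with 1 point per library (circles control, triangles pregnant). COL3A1 and COL1A2 stand highest at means between 1464 and 3125 CPM per kb. Libraries without a read cannot be drawn on a log axis, and COL6A6 and COL9A1, with 0 reads in all libraries, are left out.

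Of the 34 chains 26 passed the filter on low counts and were tested. With p-values of edgeR's quasi-likelihood test, Benjamini-Hochberg adjusted over all 18783 transcripts, 5 chains were lower in pregnant animals (COL3A1, COL5A2, COL6A3, COL16A1 and COL26A1), 1 was higher (COL7A1) and 20 did not pass an adjusted p of 0.05. Of all transcripts 10.1% were called lower, 11.2% higher and 21.3% in either direction (21.6% with 1 transcript per gene), against 19.2% lower and 23.1% in either direction for the 26 tested chains. The share called in either direction was therefore near that of all transcripts. The median log2 change (pregnant over control) was −0.25 over the tested chains and −0.02 over all transcripts, and 16 of 26 chains (61.5%) and 52.1% of all transcripts had a negative value. The number of lower chains was 3 without control replicate 3, 4 without control replicate 1 or 4 or without pregnant replicate 2, 3 or 4, and 7 without pregnant replicate 1. The number of all transcripts called lower was 1898, and 1265 without pregnant replicate 2. In bulk tissue, fewer cells of a type and less RNA per cell cannot be told apart.

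**Figure D2:**
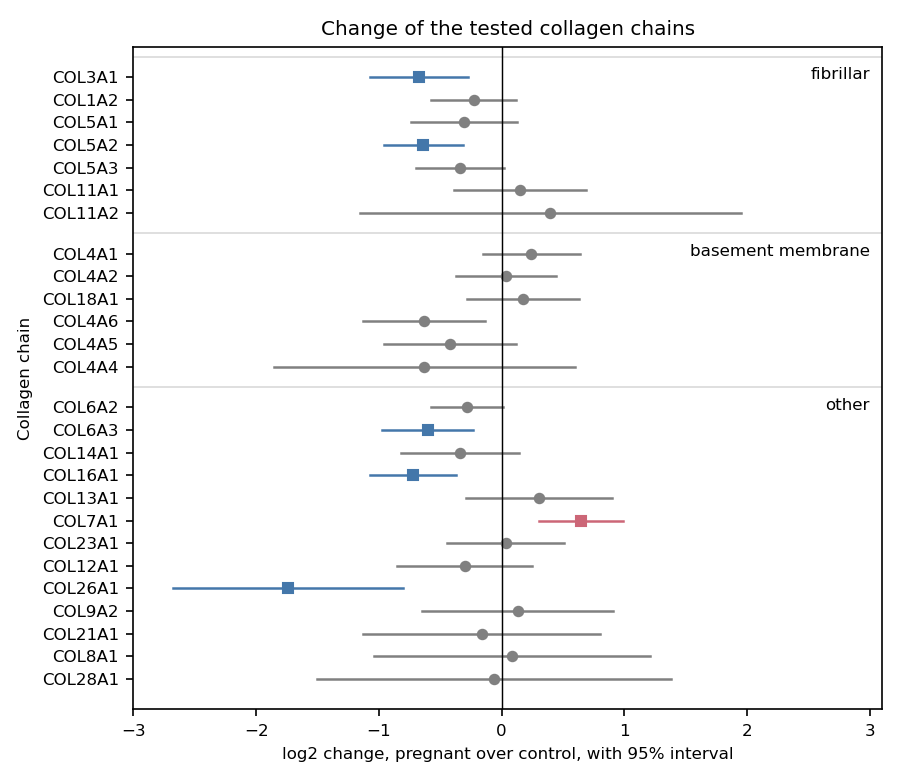
Log2 change (pregnant over control, horizontal axis) with its 95% interval for the 26 tested chains, by class. Squares are chains past the adjusted p threshold, blue lower and red higher in pregnant animals, and grey circles did not pass. The chains lower in pregnant animals lie between −0.60 and −1.74, and COL7A1 is at 0.65.

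Among fibrillar chains 2 of 7 tested fell and 0 rose, against 10.1% lower and 11.2% higher of all transcripts. Their median log2 change was −0.31. At an unadjusted p under 0.05 there were also 2, and DESeq2 and limma voom called 2 lower and 0 higher. COL3A1 was at 13534, 14357, 15044 and 16662 CPM in control replicates 1 to 4 and at 11231, 9303, 6870.4 and 9947 CPM in pregnant replicates 1 to 4. All 4 pregnant libraries lay below all 4 controls, with pregnant replicate 3 lowest. The log2 change was −0.67 ± 0.18 (SE; fold 0.627, 95% interval 0.475 to 0.827; edgeR adjusted p = 0.0229). The call of COL3A1 was lost when control replicate 3 was left out (edgeR adjusted p = 0.0565), as it was for control replicate 4 (0.051) or pregnant replicate 2 (0.0682), and its adjusted p ranged from 0.00114 to 0.0682 over 15 alternatives.

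COL3A1 lies on chromosome 15, 104067017 to 104105775, on Sscrofa10.2, with 51 exons on the plus strand. An unnamed gene model on the opposite strand (Entrez gene 100737087) shares exon bases with its end, and as the library kit keeps no strand, reads of the pair cannot be told apart. That model's count was 13.2% to 19.1% of the COL3A1 count, and its log2 change was −0.60 ± 0.15 (edgeR adjusted p = 0.0164).

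COL5A2, a type V chain, is the nearest collagen gene to COL3A1, tail to tail with a gap of 17.105 kb (chromosome 15, 104122881 to 104272686, 53 exons). It was at 440.3, 449.8, 604 and 554 CPM in control replicates 1 to 4 and at 383, 305 and 289.9 CPM in pregnant replicates 1 to 3 and 338 CPM in pregnant replicate 4. The groups did not overlap, as for 26.1% of all transcripts. The log2 change was −0.64 ± 0.15 (fold 0.642, 95% interval 0.514 to 0.803; edgeR adjusted p = 0.0103), and COL5A2 passed in all 15 alternatives (adjusted p from 7.66e-04 to 0.0399).

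COL1A2 (chromosome 9, 81357191 to 81393117, 52 exons) was at 8355, 7979.9, 9184 and 9358 CPM in controls and at 8387, 7779.6, 5928 and 7704 CPM in pregnant animals. The groups overlapped and the change did not pass (log2 −0.23 ± 0.16, 95% interval −0.57 to 0.12; edgeR adjusted p = 0.339; −0.35 to −0.13 over the alternatives). An unnamed model on the opposite strand shares its exon bases with 10.3% to 14.8% of the COL1A2 count. COL5A1, the chain that pairs with COL5A2, was at 604, 697, 714 and 806 CPM in controls and at 628, 665, 353 and 636 CPM in pregnant animals. The pregnant libraries other than replicate 3 fell within the control range, and the change did not pass (−0.31 ± 0.20, 95% interval −0.74 to 0.13; edgeR adjusted p = 0.299). Without pregnant replicate 3 the COL5A1 value was −0.13. COL5A3, the least abundant type V chain, was at 181 ± 10.3 and 143 ± 36.1 CPM (−0.34 ± 0.16; edgeR adjusted p = 0.168). It passed without pregnant replicate 1 (adjusted p = 0.0171).

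The chains best known from cartilage had few reads. COL11A1 had 295 control and 328 pregnant reads, with a log2 difference of 0.15 and a 95% interval of −0.39 to 0.69. COL11A2 had 77 and 109 reads, spread unevenly between 4 and 34 per control library, and its interval ran from −1.16 to 1.95. COL2A1, the main chain of cartilage fibrils, had 9 and 28 reads and was not tested.

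**Figure D3:**
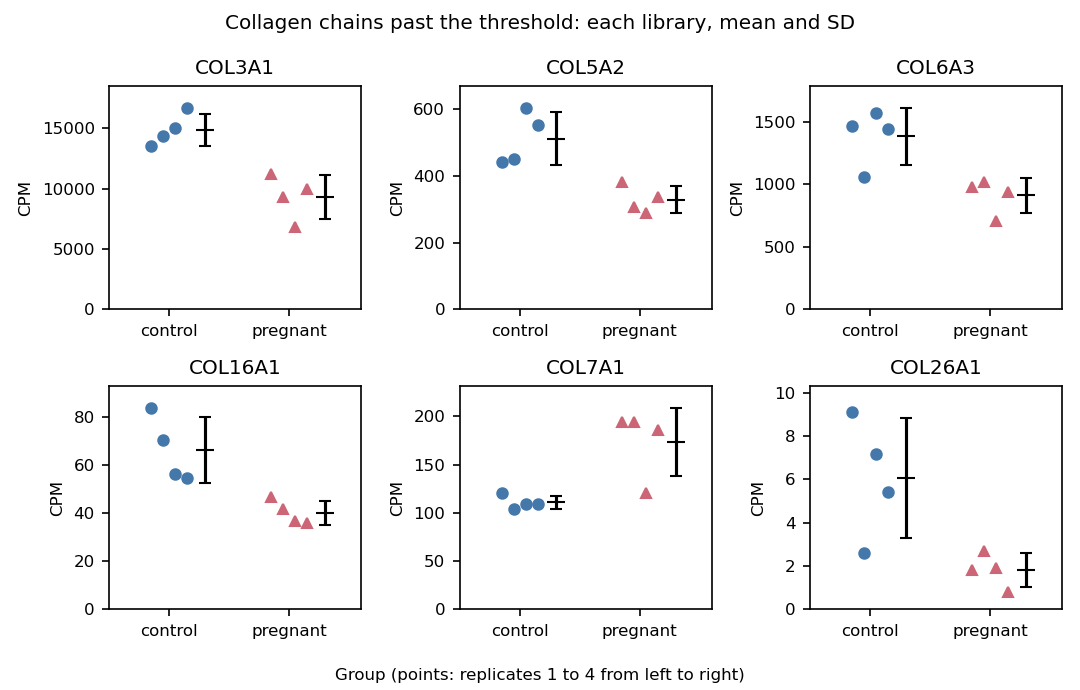
CPM (vertical axis, from 0) of the 6 chains past the threshold in each control (circles) and pregnant (triangles) library, replicates 1 to 4 from left to right, with group mean and SD. For COL3A1 the controls sit between 13534 and 16662 CPM and the pregnant animals between 6870.4 and 11231 CPM. In COL26A1 alone of the 6 the groups overlap.

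No basement membrane chain passed among the 6 tested, while 21.3% of all transcripts were called in either direction. There were 0 higher and 0 lower by edgeR and limma voom, 1 at an unadjusted p under 0.05 and 1 by DESeq2 (COL4A6). COL4A1 and COL4A2 together form the common type IV molecule of basement membranes. COL4A1 was at 2382, 2446, 2329 and 3384 CPM in control replicates 1 to 4, and at 3287, 3587, 2379.9 and 3203 CPM in pregnant replicates 1 to 4. Control replicate 4 stood above the other 3 controls, within the pregnant range, and pregnant replicate 3 was at the level of those controls. The log2 difference was 0.24 with a 95% interval of −0.15 to 0.64 (edgeR adjusted p = 0.374), and 0.38 without control replicate 4 (adjusted p = 0.144). COL4A2 was at 1766, 1629.9, 1631 and 2185 CPM in controls and at 2064, 2231, 1298 and 1792 CPM in pregnant animals, with a log2 difference of 0.03 and an interval of −0.37 to 0.44. Both genes lie head to head on chromosome 11, with a gap of 77.695 kb between their deposited models (COL4A1 from 84372292 to 84469335, COL4A2 from 84547031 to 84675840).

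COL4A5 and COL4A6, which join a rarer type IV network, lie on the X chromosome. COL4A6 was at 54.1 ± 7.91 CPM in controls and 34.9 ± 11.97 CPM in pregnant animals (log2 −0.63 ± 0.22, edgeR adjusted p = 0.0699). It passed with DESeq2 (adjusted p = 0.0495), without pregnant replicate 1 (edgeR adjusted p = 0.012) and on scaling to total counts (0.0366). COL4A5 was at 29.1 ± 6.95 and 21.8 ± 6.59 CPM (−0.42 ± 0.24, edgeR adjusted p = 0.252). COL4A4 had 133 control and 88 pregnant reads, with an interval of −1.85 to 0.59, and COL4A3 had 9 and 6 reads and was not tested. These 2 chains are best known from the filter of the kidney.

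COL18A1, whose end is cleaved off as endostatin, was at 628, 434, 566 and 438 CPM in controls and at 676, 745, 408 and 501 CPM in pregnant animals. The groups overlapped widely (log2 0.17, 95% interval −0.28 to 0.63; edgeR adjusted p = 0.59).

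Among the other chains 1 of 13 tested rose and 3 fell, against 11.2% higher and 10.1% lower of all transcripts. COL7A1, which forms the anchoring fibrils that hold a basement membrane to the stroma below it, was the chain that rose (chromosome 13, 34507516 to 34539116, 118 exons). It was at 120.4, 104 and 109.6 CPM in control replicates 1 to 3 and 109.4 CPM in control replicate 4, and at 194.2, 194.04, 120.6 and 186 CPM in pregnant replicates 1 to 4. Pregnant replicate 3 was just above the highest control, and the other 3 pregnant libraries stood well apart. The log2 change was 0.65 ± 0.16 (fold 1.57, 95% interval 1.23 to 1.99; edgeR adjusted p = 0.0133), and COL7A1 passed in all 15 alternatives (adjusted p from 0.00117 to 0.0461).

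COL6A2 and COL6A3 are chains of the beaded microfibrils that link cells to the surrounding fibrils. COL6A3 was at 1464, 1057, 1574 and 1442 CPM in controls and at 981, 1018, 709 and 941 CPM in pregnant animals (chromosome 15, 151450042 to 151523223, 44 exons). The lowest control, replicate 2, was just above the highest pregnant library, also replicate 2. The log2 change was −0.60 ± 0.17 (fold 0.659, 95% interval 0.51 to 0.851; edgeR adjusted p = 0.0267). The call of COL6A3 was lost in 4 of 8 fits that left out 1 library: control 1 (0.0644), control 3 (0.0775), pregnant 3 (0.0606) or pregnant 4 (0.0593). Its adjusted p ranged from 0.0072 to 0.0775 over 16 alternatives. COL6A2 was at 1308, 1154, 1117 and 1255 CPM in controls and at 1104, 1096, 859 and 916.3 CPM in pregnant animals. Its groups did not overlap either, but the change did not pass (−0.28 ± 0.13, 95% interval −0.58 to 0.01; edgeR adjusted p = 0.161), except on scaling to total counts (adjusted p = 0.0356). COL6A5 had 14 and 10 reads.

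Of the chains that decorate fibrils, COL16A1 fell. It was at 83.8, 70.8, 56.6 and 54.6 CPM in controls and at 46.8, 41.8, 36.9 and 35.9 CPM in pregnant animals, without overlap (chromosome 6, 81892917 to 81907031, 18 exons). The log2 change was −0.72 ± 0.16 (fold 0.607, 95% interval 0.476 to 0.775; edgeR adjusted p = 0.00877), and COL16A1 passed in all 15 alternatives (adjusted p from 8.81e-04 to 0.0313). COL14A1 was at 249.8 ± 63.3 and 197 ± 47.8 CPM (−0.34, 95% interval −0.82 to 0.14). COL12A1 was at 129.7 CPM in control replicate 4 and at 63.9 to 70.6 CPM in the other controls, against 45.7 to 78.6 CPM in pregnant animals. Its log2 difference was −0.30 with control replicate 4 and 0.003 without it. A shorter model on the same strand shares exon bases with COL12A1, and another deposited transcript of COL12A1 had a log2 difference of −0.36 (edgeR adjusted p = 0.407). COL9A2 had 271 and 308 reads, and COL21A1 285 and 247 reads. Their 95% intervals, −0.65 to 0.91 and −1.13 to 0.80, include a difference of 1.5-fold in either direction.

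COL26A1, an EMI-domain chain described in developing testis and ovary, had the largest change of the 6 called chains at a low level. It was at 9.12, 2.61, 7.17 and 5.41 CPM in controls (269, 87, 216 and 189 reads) and at 1.84, 2.69, 1.92 and 0.793 CPM in pregnant animals (52, 103, 58 and 26 reads). Control replicate 2 lay just below pregnant replicate 2, so that the groups overlapped. The log2 change was −1.74 ± 0.42 (fold 0.3, 95% interval 0.156 to 0.574; edgeR adjusted p = 0.0145; chromosome 3, 8552941 to 8703021, 13 exons). It passed in all 15 alternatives (adjusted p from 4.26e-04 to 0.0423), with log2 changes from −2.001 to −1.46.

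The transmembrane chains did not pass. COL13A1, found at cell adhesions, was at 63.2 ± 26.0 and 78.05 ± 15.1 CPM, and COL23A1 at 21.2 ± 7.09 and 21.7 ± 1.53 CPM. Their log2 intervals were −0.29 to 0.90 and −0.45 to 0.51. COL8A1, a short chain of vessel walls, had 153 and 160 reads with an interval of −1.04 to 1.21, and COL28A1 36 and 34 reads with an interval of −1.503 to 1.38.

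Of the 8 chains left out by the filter, COL10A1 had the largest difference in reads. This short chain of growth plate cartilage had, by replicate, 0, 2, 0 and 2 reads in controls against 8, 13, 3 and 14 in pregnant animals. The 3 reads of pregnant replicate 3 were just above the highest control. With no filter on low counts it passed (edgeR adjusted p = 0.0319), and its fold is not given because it rests on 4 control reads. COL19A1 had 49 control reads, 30 of them in replicate 1, and 33 pregnant reads, and COL8A2 had 29 and 14. COL6A6 and COL9A1 had 0 reads in all 8 libraries. For independent reads that allows up to 3 counts per library, or 0.0784 to 0.106 CPM, on the deposited models. The COL6A6 model has only 11 exons and 1089 nt, against 39 exons and 7560 nt for COL6A5. Small counts were mostly even numbers here, so the limit may be higher.

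The proportions among the abundant chains differed between the groups in several cases. These ratios of CPM per kb are descriptions without a test, and the pair of COL3A1 with COL1A2, the pair of COL6A3 with COL6A2 and the class shares were chosen after their values were seen. COL3A1 stood at 1.73, 1.92, 1.75 and 1.90 times COL1A2 in controls and at 1.43, 1.28, 1.24 and 1.38 times in pregnant animals, so that the groups did not overlap. COL4A1 stood at 1.28, 1.42, 1.35 and 1.47 times COL4A2 in controls and at 1.51, 1.52, 1.74 and 1.69 times in pregnant animals, again without overlap, and the mean log2 difference of 0.23 lay between 0.19 and 0.26 on leaving out any 1 library. The groups did not overlap for 26.1% of all transcripts, but that share is of single transcripts. No such share was worked out for ratios of 2 genes.

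The ratio of COL5A1 to COL5A2 was 1.21 ± 0.136 in controls and 1.502 ± 0.352 in pregnant animals, of COL4A5 to COL4A6 0.846 ± 0.241 and 0.974 ± 0.148, and of COL6A3 to COL6A2 0.421 ± 0.0742 and 0.337 ± 0.0310. Each of these 3 ratios overlapped between the groups.

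Summed over their members, fibrillar chains stood at 5098 ± 417 CPM per kb in controls and 3615 ± 624 in pregnant animals, and basement membrane chains at 942 ± 108 and 1045 ± 211. The fibrillar sums did not overlap (lowest control 4707, highest pregnant 4227), and the basement membrane sums did. Fibrillar chains made up 76.9% ± 1.49 of the summed level of all 34 chains in controls and 70.4% ± 1.98 in pregnant animals. Basement membrane chains made up 13.2% to 15.0% in controls and 19.2% to 22.9% in pregnant animals, and the other chains 8.85% ± 0.928 and 9.28% ± 0.672. COL3A1 by itself took 45.2% to 48.7% and 35.8% to 40.0% of that sum, and COL1A2 25.1% to 26.9% and 28.0% to 29.8%. As parts of 1 sum these shares are not independent, and a lower COL3A1 by itself makes the other shares higher. The sums lack COL1A1, COL6A1 and COL15A1.

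**Figure D4:**
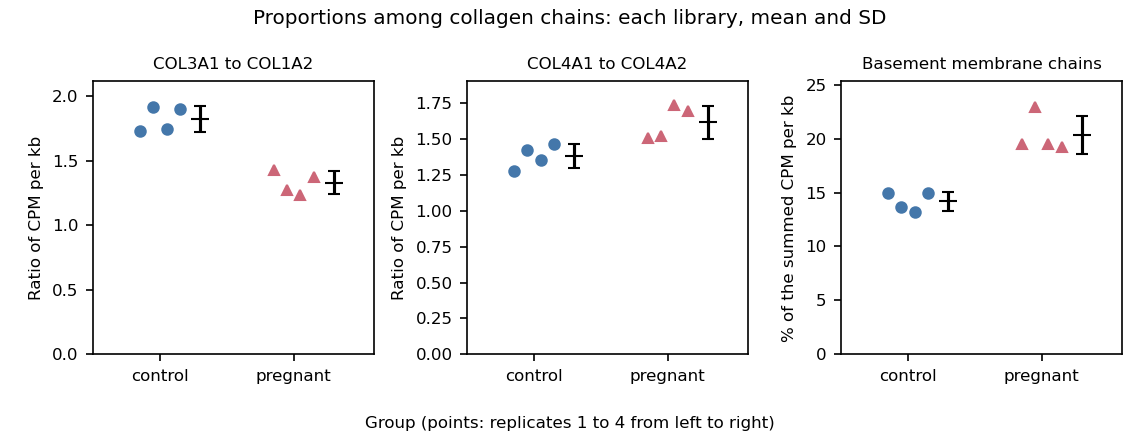
Ratio of COL3A1 to COL1A2 and of COL4A1 to COL4A2 (CPM per kb), and the share of basement membrane chains in the summed CPM per kb of the 34 chains (vertical axes from 0), for each control (circles) and pregnant (triangles) library with group mean and SD. In the 3 panels the groups do not overlap. The first ratio is lower in pregnant animals (1.24 to 1.43 against 1.73 to 1.92), and the other 2 values are higher. The share in the third panel also depends on the level of COL3A1, the largest part of the sum.

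Animals of 1 group differed across many chains at once. Pregnant replicate 3 was the lowest pregnant library for 18 of the 26 tested chains (69.2%) and the highest for 0, while it was the lowest for 25.3% of all transcripts. Pregnant replicate 1 was the highest for 14 chains (53.8%, against 25.5% of all transcripts). Control replicate 4 was the highest control for 12 chains (46.2%, against 22.8%), and control replicate 2 the lowest for 13 (50%, against 21.4%). Chains of 1 library share its RNA and scaling and are not independent. Without pregnant replicate 3, COL3A1, COL5A2, COL16A1 and COL26A1 were called lower and COL7A1 higher. Without control replicate 4, COL5A2, COL6A3, COL16A1 and COL26A1 were lower and COL7A1 higher.

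Of 20 tested genes that fold, modify and export collagen inside the cell 7 fell and 1 rose, with a median log2 change of −0.21. For this and the lists that follow, the values over all transcripts were 10.1% lower, 11.2% higher and a median of −0.02. Some genes searched for these lists had no match in the tables and are not counted. They were CRTAP, P4HB, PLOD3, LOXL2, LAIR1, OGN, LAMA5, LAMB2 and FREM2. The 7 were the prolyl isomerases PPIB (−0.71 ± 0.12) and FKBP10 (−0.77 ± 0.17), the prolyl 3-hydroxylase family members P3H1, P3H3 (−0.82 ± 0.18) and P3H4, the collagen chaperone SERPINH1 and the galactosyltransferase COLGALT2. The count of lower genes was 3 without pregnant replicate 2 or 4 and 4 without control replicate 1 or 3 or pregnant replicate 3, and PPIB, P3H3 and FKBP10 passed in each alternative. P4HA3, a catalytic subunit of prolyl 4-hydroxylase, rose from 4.49 ± 1.71 to 28.2 ± 10.1 CPM (2.65 ± 0.34, edgeR adjusted p = 3.47e-04). Its relatives P4HA1 and P4HA2 had log2 differences of 0.52 and −0.42 and did not pass (edgeR adjusted p = 0.142 and 0.0964).

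Of 8 genes listed for the trimming of procollagen outside the cell 2 fell and 1 rose, with a median of −0.26, while 21.3% of all transcripts were called in either direction. TLL2, a protease of the tolloid family, fell from 25.4 ± 9.75 to 1.81 ± 0.330 CPM (−3.80 ± 0.30), while its relatives BMP1 and TLL1 did not pass (−0.05 and −1.33, edgeR adjusted p = 0.866 and 0.125). PCOLCE, which enhances removal of the carboxyl propeptide, was lower (−0.65 ± 0.20, edgeR adjusted p = 0.0429). This call was lost on leaving out control 1, 3 or 4 or pregnant 3 or 4 (adjusted p = 0.0569 to 0.124). ADAMTS14, which removes the amino propeptide, was higher (0.74 ± 0.19, edgeR adjusted p = 0.0177; 0.0521 without pregnant replicate 2). Of 5 crosslinking genes (median −0.10) 1 passed: the lysyl oxidase family member LOXL4 rose from 0.574 ± 0.252 to 10.5 ± 4.82 CPM (4.18 ± 0.43). LOX itself and LOXL1 had log2 differences of −0.57 and −0.80 (edgeR adjusted p = 0.345 and 0.0563). Over the alternatives LOX ranged from −0.78 (without control replicate 1) to −0.08 (without control replicate 4). Apart from the fit with the replicate number as a block, LOXL1 passed with DESeq2, on scaling to total counts and without pregnant replicate 2 (lowest adjusted p = 0.0219).

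Of 8 tested genes that degrade or take up collagen 3 fell and 1 rose, with a median of −0.35. The membrane collagenase MMP14 was at 679 ± 98.2 CPM in controls and fell to 358 ± 108 CPM (−0.92 ± 0.20, edgeR adjusted p = 0.00823). MMP2, the gelatinase that it activates, had a log2 difference of −0.05 (edgeR adjusted p = 0.884). The collagenase MMP8 also fell, from 1458 reads in all to 21 (−6.14 ± 0.53; −7.59 without pregnant replicate 2). The calls of the uptake receptor MRC2 (lower, −0.69) and of MMP13 (higher, 3.78 ± 1.05, at 2.11 ± 2.43 CPM in pregnant animals) were lost on leaving out several single libraries. The adjusted p reached 0.118 for MRC2 without control replicate 3 and 0.095 for MMP13 without pregnant replicate 2, where the log2 change of MMP13 was 2.58. It was 4.99 without control replicate 4. Of 8 receptors 2 fell and 0 rose by edgeR, with a median log2 change of 0.31. DESeq2 called 2 higher, and edgeR called 1 higher with upper quartile scaling, with 1 transcript per gene or without control replicate 3. The 2 that fell were ITGA11, the integrin chain of fibroblasts that binds fibrillar collagen (−1.47 ± 0.17), whose model shares exon bases with another gene, and the receptor kinase DDR1 (−0.44 ± 0.11).

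Of 13 proteoglycans and other fibril partners 5 fell and 3 rose, with a median of −0.39, against 10.1% lower and 11.2% higher of all transcripts. The calls of SPARC (lower) and LUM (higher) were each lost on leaving out 1 library in 5 of 8 fits, with adjusted p up to 0.0783 for SPARC and 0.095 for LUM, and LUM also on scaling to total counts (adjusted p = 0.122). FMOD, which binds type I collagen and controls fibril width, fell from 110.8 ± 38.0 to 18.6 ± 1.94 CPM (−2.57 ± 0.25) and PRELP from 25.3 ± 2.01 to 12.7 ± 3.87 CPM (−0.998 ± 0.21). OPTC, a small leucine-rich proteoglycan, fell from 14.4 ± 11.7 to 0.244 ± 0.299 CPM (−5.87 ± 1.11, edgeR adjusted p = 0.00528; −5.22 to −6.91 over the alternatives). DCN, which binds fibrils too, had a log2 difference of 0.02 (edgeR adjusted p = 0.928). FN1, the adhesive protein fibronectin, rose from 657 ± 73.1 to 1174 ± 301 CPM (0.84 ± 0.18, edgeR adjusted p = 0.00779). Of 10 tested laminins and other basement membrane partners 2 fell and 0 rose, with a median of −0.02. FRAS1, which lies at the same epithelial border as type VII collagen, fell from 39.3 ± 10.6 to 9.41 ± 2.52 CPM (−2.06 ± 0.24). NID2, which links laminin to type IV collagen, was lower (−0.60 ± 0.17, edgeR adjusted p = 0.0258). Leaving out control 1 or 2 or pregnant 2, 3 or 4 ended the call (adjusted p = 0.05001 to 0.0774).

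**Figure D5:**
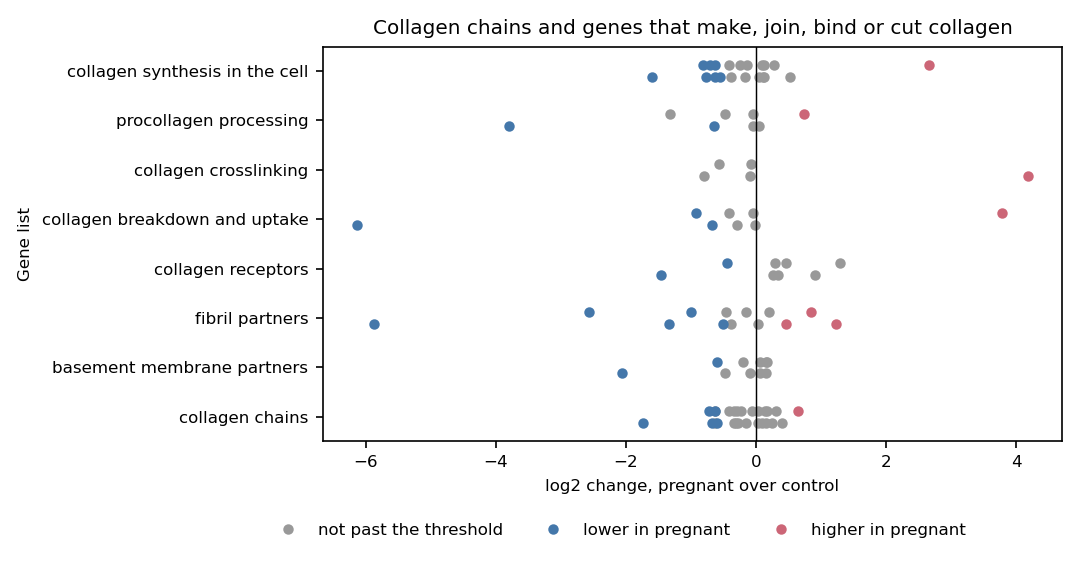
Log2 change (pregnant over control, horizontal axis) of the tested collagen chains and of the tested genes of 7 lists, 1 point per gene. Blue points passed and are lower in pregnant animals, red points passed and are higher, and grey points did not pass. The collagen chains lie between −1.74 and 0.65, a narrower range than single genes such as MMP8 (−6.14) and LOXL4 (4.18).

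Markers of the cell types searched, not all of which make collagen, changed in different directions between and within lists. Of 9 tested fibroblast markers 2 rose (THY1 and LUM) and 2 fell (MFAP5 and DPT). The number that rose was 1 where LUM lost its call, without control replicate 2 or 3, without pregnant replicate 2, 3 or 4, or on scaling to total counts. Their summed level was 2805 to 3984 CPM in controls and 3560.2 to 4259 CPM in pregnant animals. Of 6 smooth muscle markers 4 fell and 0 rose, with sums of 679 to 1089 and 421 to 627 CPM. Of 7 endothelial markers 2 rose and 0 fell (4 rose without control replicate 4, and 3 with DESeq2 or without pregnant replicate 3), with sums of 650.2 to 1129.97 and 906 to 1227 CPM, and of 5 pericyte markers 2 rose and 0 fell, with sums of 177 to 197 and 172 to 277 CPM. Of 5 epithelial markers 3 fell and 1 rose, with sums of 2013 to 3015 and 1350.1 to 1885 CPM. All 6 macrophage markers with a match in the tables rose (sums of 350.2 to 661 and 1076 to 1432 CPM), as did 4 of 5 T cell markers (16.2 to 44.5 and 59.7 to 118.5 CPM). Of 8 conceptus markers 2 could be tested and 1 rose, with sums of 4.08 to 8.42 and 8.18 to 11.8 CPM, and CDX2 and POU5F1 had 0 reads in controls and 4 and 10 in pregnant animals. No matched marker of the other lists was without reads. Some markers searched had no match in the tables and are not counted. They were PDGFRB, MYH11, LMOD1, CDH5, NOTCH3, CDH1, KRT7, CD68, CD163, CD5, CYP19A1 and IFND. The part of these cells in the collagen changes was not tested.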

How the data were processed

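Each library's file holds unnormalized counts per transcript, deposited by the authors. Exon positions were read from the deposited merged annotation. Per the submitters' processing notes, CASAVA 1.6, TopHat 1.4, Cufflinks 1.3 and DESeq were among the tools, and Sscrofa10.2 the build. The counting step is not given in the sources used here. No strand is marked: the kit, per the labels' protocols, has no such step. Entrez IDs were given symbols with RefSeq's table for Sscrofa11.1, used for names only. Lengths are the summed exons of the deposited merged annotation.

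The counts of 24139 transcripts entered edgeR 4.0.16 under R 4.3.3 (TMM scaling, filterByExpr at a minimum count of 10, quasi-likelihood fit with robust dispersions, group as the only term), adjusted by Benjamini-Hochberg over 18783 transcripts. CPM use TMM-scaled library sizes. SE and 95% intervals follow from the F statistic. The tests were checked on simulated data. Alternatives were DESeq2 1.42.0, limma voom 3.58.1, upper quartile scaling, no filter, 1 transcript per gene, the replicate number as a block and leaving out each library. Scaling to total counts and other transcripts of the same gene were added after seeing the data.

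Small counts were mostly even numbers (67.6% to 70.7% of counts from 1 to 50), so reads are not independent molecules, and floors cover counting error only. The members and lists were chosen with earlier results of these data known. Every chain is named. Values in each library are given for chains that passed and for the 8 chains with the highest mean CPM per kb, and of each other list for up to 4 genes with the smallest p among those that passed, of which some are left out here. Genes that did not pass are named for comparison with their relatives, after their values were seen.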

Additional observations from a re-analysis of the deposited data

Results flagged for a closer look

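In 7 of 64 sets of 4 libraries (1 chain in 1 group), the highest or lowest library stood farther from the rest than Dixon's 95% critical value allows, and chance alone marks about 1 set in 20. Pregnant replicate 3 was low for COL5A1 (353 CPM, the others 628 to 665) and for COL7A1 (120.6 CPM, the others 186 to 194.2), and high for COL19A1 (0.430 CPM from 13 reads, the others 0.183 to 0.212). Control replicate 4 was high for COL4A1 (3384 CPM, the others 2329 to 2446) and for COL12A1 (129.7 CPM, the others 63.9 to 70.6). Control replicate 2 was low for COL4A6 (42.2 CPM, the others 57.2 to 58.7), and pregnant replicate 2 for COL23A1 (19.4 CPM, the others 22.2 to 22.7). The log2 change of COL7A1 was 0.79 without pregnant replicate 3. The cause of these values was not tested.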

How the results depend on the processing

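Of the 6 called chains, COL5A2, COL16A1, COL26A1 and COL7A1 passed in every alternative run, and COL3A1 and COL6A3 lost their calls in 9 of 91 fits of the 6 chains together. No called chain changed direction. Leaving out 1 library gave 3 to 7 lower chains, 1 higher chain each time, and 1265 to 2017 transcripts called lower. Without the filter 2 chains were higher. Scaling to total counts moved the median of all transcripts from −0.02 to −0.15, called 3284 transcripts and 7 chains lower, and turned the share of higher among called transcripts from 52.7% to 33.6%. 

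The numbers of the labels did not pair the libraries: deviations of same-numbered libraries correlated at −0.0932 to 0.186, with 1 of 4 above 0.1, and 2 of 4 control libraries correlated best with their own number. With the replicate block 3 chains were lower, 1 was higher and 3883 transcripts passed. In that block COL3A1 had an adjusted p = 0.0502 and COL6A3 0.0619. Of 5 crosslinking genes 1 was lower with the block, and of 8 receptors 2 were higher. The fibroblast marker DPT lost its call there (edgeR adjusted p = 0.0612).

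Chains that did not pass and lay near 0 changed sign in some fits. On scaling to total counts this held for COL4A2 (−0.092), COL23A1 (−0.11) and COL8A1 (−0.059), and with limma voom for COL28A1 (0.0049). On leaving out 1 library the log2 difference ranged from −0.068 to 0.17 for COL4A2, −0.094 to 0.21 for COL23A1, −0.40 to 0.0033 for COL12A1, −0.074 to 0.53 for COL9A2, −0.62 to 0.15 for COL21A1, −0.20 to 0.74 for COL8A1 and −0.38 to 0.44 for COL28A1. The cause was not tested. For the chains with the fewest reads, differences smaller than their intervals were not detectable at this depth.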

Other observations

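Among the genes listed as fibroblast markers, 2 had changes larger than that of any collagen chain called. MFAP5, a glycoprotein of the elastic microfibrils, fell from 259 ± 158 to 5.08 ± 1.397 CPM (−5.68 ± 0.52, edgeR adjusted p = 1.06e-04), with controls between 93.6 and 434 CPM and pregnant animals between 3.84 and 7.08 CPM. THY1, a surface protein of fibroblasts and other stromal cells, rose from 28.2 ± 8.11 to 252 ± 66.6 CPM (3.16 ± 0.25, edgeR adjusted p = 1.95e-05). Both were picked after their values were seen.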
